A study of Mus with 8 samples.

Results

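Genes of homologous recombination, the Fanconi anemia pathway and the ATM and ATR checkpoints were followed in mouse liver RNA. The set was chosen by name from these 3 pathways. Of 34 listed genes, 32 had a row among the 23185 named genes of the array table, and Rbbp8 and Xrcc2 are not analysed here. The livers came from 2 groups of 4 samples, labelled LKB1 KO and Ctrl (Control). All were taken 48 h after partial hepatectomy, an operation after which the remaining liver regrows. The kinase LKB1, encoded by Stk11, switches on AMPK and its relatives. The labels give the genotype only in those words. They name no strain, sex, age, promoter of a Cre or cell type in which the gene was deleted, and do not say whether the 4 samples of a group are separate animals. The p-values therefore measure the spread between these samples, which may be technical.

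Homologous recombination repairs a broken chromosome by copying the sister chromatid, which exists only after replication. ATM is the kinase that answers double strand breaks, and ATR, carried by ATRIP, answers stretches of single stranded DNA at stalled forks. They pass the signal to the effector kinases CHK2 and CHK1, which hold the cell cycle. BRCA1, PALB2 and BRCA2 act together at the resected break to start strand exchange, and the Fanconi anemia proteins unlock crosslinked DNA through the ubiquitinated pair FANCD2 and FANCI. Many of these genes are transcribed mainly in S and G2 phase in dividing cells, and hepatocytes enter the cell cycle after partial hepatectomy.

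Stk11 was lower in all 4 LKB1 KO arrays (difference -2.39 log2 units, SE 0.19, limma adjusted p = 0.000453), so no array went against its label. The median of all named genes lay between 3.75 and 3.96 log2 units per array, and LKB1 KO 2 had the highest median and the narrowest spread of values. All 10 hepatocyte markers were above background in all arrays. Background was gauged at 3.73 log2 units, the level under which 95% of 1350 olfactory and vomeronasal receptor genes had their mean. Hepatocyte markers had a lower mean in LKB1 KO in 9 of 10 cases (median -0.18, 0 past the threshold). Their summed log2 level ran from 115.21 to 116.17 in LKB1 KO and from 117.25 to 118.07 in Control, without overlap. Endothelial and macrophage markers had a lower mean in 10 of 10 cases each (medians -0.42 and -0.44), with Clec4g, Kdr and Csf1r past the threshold (the calls of Kdr and Csf1r ended in 10 and 11 of 17 alternative fits). Stellate cell markers had a lower mean in 8 of 10 cases (median -0.27, 0 past the threshold) and neutrophil and erythroid markers in 5 of 7 (median -0.15, Alas2 past the threshold, a call that ended in 10 of 17 alternative fits). Lymphocyte markers had a higher mean in 7 of 8 cases (median 0.14, 0 past the threshold). The threshold, a limma adjusted p under 0.05, was passed by 1.98% of all genes. The summed log2 level of the macrophage list ran from 61.40 to 65.77 in LKB1 KO and from 65.00 to 73.58 in Control, and that of the endothelial list from 58.07 to 60.71 in LKB1 KO and from 61.27 to 65.80 in Control. For stellate cell markers the sum ran from 50.36 to 56.75 in LKB1 KO and from 53.57 to 60.85 in Control, for neutrophil and erythroid markers from 30.55 to 33.76 in LKB1 KO and from 33.30 to 36.47 in Control, and for lymphocyte markers from 24.13 to 29.55 in LKB1 KO and from 23.96 to 26.25 in Control. Of the 8 lymphocyte markers, 4 (Cd79a, Ms4a1, Cd3g and Cd2) were under the gauge in all arrays. So were 2 of the 7 neutrophil and erythroid markers (Ly6g and Elane). Mpo and Slc4a1 were under it in all 4 Control arrays, so the median of that list rests on dim genes. The remaining markers of that list, Alas2, S100a8 and S100a9, stood at -1.03, -1.07 and -1.07, and of these only Alas2 passed the threshold. The part of these cell types in the results that follow was not tested. In whole tissue, fewer cells of a type and less RNA per cell cannot be told apart.

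None of the 32 genes passed the test between LKB1 KO and Control livers. With limma and Benjamini-Hochberg adjustment over all named genes, 0 of 32 had an adjusted p under 0.05, against 1.98% of all genes tested (0.487% higher and 1.49% lower in LKB1 KO). At an unadjusted p under 0.05 stood 3 of 32, Atm, Fanci and Chek1, where the share over all genes was 13.4%. In 0 of 32 genes were the arrays of the groups fully apart, against 8.84% of all genes. The mean was higher in LKB1 KO for 25 of 32, against 52.9% of all genes, and the median difference was 0.14 log2 units, against 0.02 over all genes. Without LKB1 KO 2, the array that stood apart, 0 of 32 passed and the median was 0.20, and without both LKB1 KO 2 and Control 4 it was 0.13 with 0 passing. The median depended on single Control arrays, at 0.054 without Control 4, 0.065 without Control 1 and 0.25 without Control 3. These 32 genes share the same 8 arrays and vary together, so the 25 are not 25 separate observations.

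The intervals give the differences compatible with the 8 arrays, and are not a detection limit of the adjusted test. For 27 of the 32 genes, the 95% confidence interval of the difference, not adjusted for the number of genes, lay within 1 log2 unit of 0 on both sides. All 8 arrays were above the background gauge for 13 of these 27, and for them a change of 2-fold or more in the measured value lay outside the interval. The other 14, Palb2, Fancc and Fanci among them, had at least 1 array under the gauge, where RMA compresses differences, so their intervals do not bound the change of the transcript. The exceptions were Chek1, Atr, Brip1 and Rad51ap1, whose intervals reached above 1, and Atm, whose interval reached below -1.

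**Figure D1:**
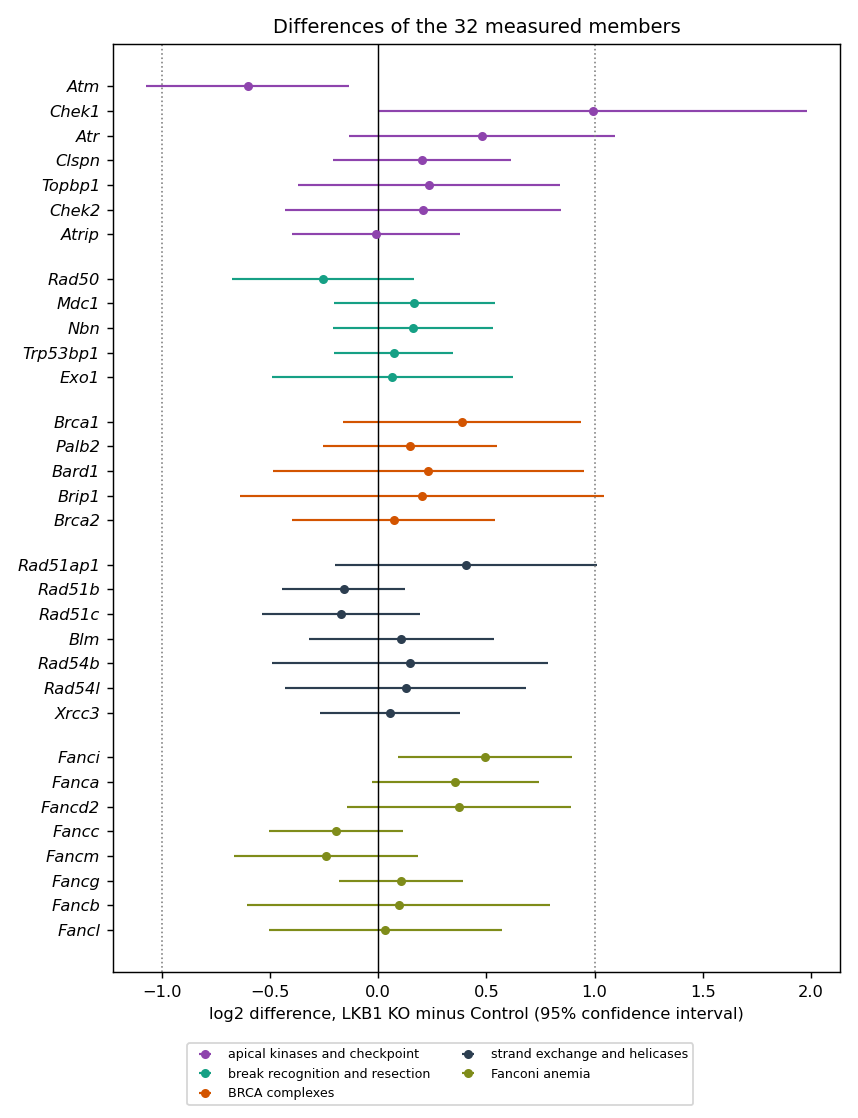
Difference of each of the 32 measured genes in log2 units, LKB1 KO minus Control (points), with its 95% confidence interval (bars), coloured by role. Dotted lines mark a 2-fold change. Chek1 has the highest difference, 0.99, and Atm the lowest, -0.60.

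Among the apical kinases and their effectors, Atm stood lower and Atr and Chek1 higher in the LKB1 KO livers, and none of these differences passed the test. Atm (Entrez Gene 11920) read 4.31, 4.04, 4.73 and 4.77 log2 units in LKB1 KO 1 to 4, against 5.001, 5.26, 5.39 and 4.62 in Control 1 to 4. LKB1 KO 3 and 4 lay above Control 4 and below the remaining Control arrays. The difference was -0.60 (SE 0.21, 95% confidence interval -1.07 to -0.14, limma adjusted p = 0.222). Atr (Entrez Gene 245000) read 5.68, 4.92, 5.89 and 5.95 in LKB1 KO 1 to 4, against 5.03, 5.26, 5.71 and 4.52 in Control 1 to 4. LKB1 KO 2 lay among the Control arrays and Control 3 among the LKB1 KO arrays. The difference was 0.48 (SE 0.28, limma adjusted p = 0.515), and it ran from 0.28 without Control 4 to 0.71 without LKB1 KO 2.

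Chek1, which encodes CHK1, the effector kinase of ATR, had the widest spread among the Control arrays. Chek1 (Entrez Gene 12649) read 5.33, 4.96, 5.64 and 5.57 log2 units in LKB1 KO 1 to 4, against 3.46, 5.03, 5.62 and 3.42 in Control 1 to 4. Control 1 and Control 4 lay below the background gauge and below the medians of their own arrays, whereas Control 2 and Control 3 lay within the range of the LKB1 KO arrays. The means were 5.38 ± 0.31 in LKB1 KO and 4.38 ± 1.12 in Control (SD, n = 4 each). A mean difference of 0.99 (SE 0.45, 95% confidence interval 0.0042 to 1.98, limma adjusted p = 0.369) thus came with a range of 2.20 among Control arrays and 0.68 among LKB1 KO arrays. Leaving out single arrays gave a difference between 0.67 and 1.41, the highest without Control 3.

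The other 4 genes of this group had smaller differences. Topbp1, the activator of ATR, stood at 0.24, Clspn, whose product claspin holds CHK1 for activation by ATR, at 0.20, and Chek2 at 0.21. Single arrays decided these sizes, since Topbp1 ran from 0.07 without Control 4 to 0.50 without Control 3 and Chek2 from 0.0057 without Control 4 to 0.41 without LKB1 KO 2. The ATR partner gene Atrip was at -0.01 (95% confidence interval -0.40 to 0.38). Topbp1 had Control values from 5.78 in Control 4 to 7.05 in Control 3, which enclosed the LKB1 KO values of 6.14 to 6.83.

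**Figure D2:**
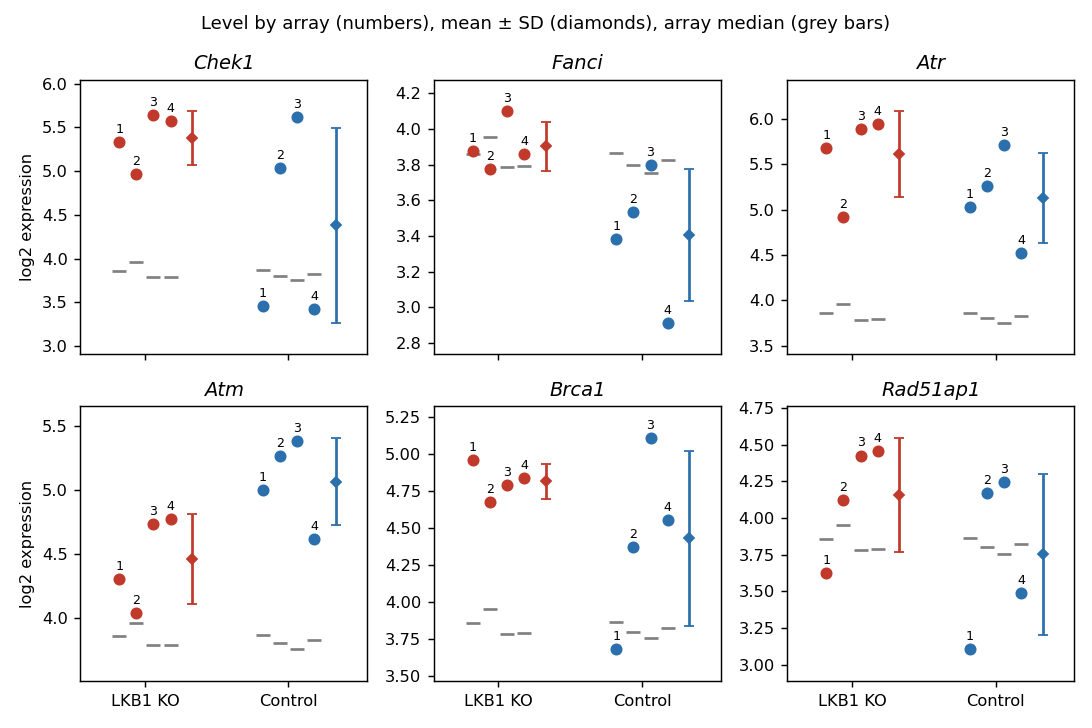
Log2 expression of 6 genes in each array. Numbered points are arrays (LKB1 KO left, Control right), diamonds with bars are group means with SD, and grey bars are each array's median over all named genes. Chek1 in Control 1 and 4 lies at 3.46 and 3.42, while Control 2 and 3 reach 5.03 and 5.62.

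Genes of break recognition and resection had a median difference of 0.07. Rad50, the ATPase of the MRE11 complex, read 5.48, 5.10, 5.56 and 5.58 log2 units in LKB1 KO 1 to 4, against 5.42, 6.11, 5.85 and 5.36 in Control 1 to 4. Control 1 and 4 lay inside the LKB1 KO range and Control 2 and 3 above it (difference -0.26, SE 0.19, limma adjusted p = 0.629). Nbn, a further subunit of that complex, read 6.32, 6.31, 6.75 and 6.65 in LKB1 KO 1 to 4, against 6.35, 6.40, 6.63 and 5.9999 in Control 1 to 4 (difference 0.16, SE 0.17). Mdc1, the scaffold that reads phosphorylated histone H2AX, read 5.67, 5.40, 5.76 and 5.91 in LKB1 KO 1 to 4, against 5.31, 5.52, 5.92 and 5.33 in Control 1 to 4 (difference 0.17, SE 0.17). In both genes Control 3 was the highest Control array. Trp53bp1, which encodes a chromatin reader that restrains resection, differed by 0.07 (95% confidence interval -0.20 to 0.34). The nuclease gene Exo1 differed by 0.06, with LKB1 KO 4 the highest of the 8 arrays at 4.87.

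In the BRCA complexes, all 5 genes had LKB1 KO values that lay inside the range of the Control values. Brca1 (Entrez Gene 12189) read 4.96, 4.68, 4.79 and 4.84 log2 units in LKB1 KO 1 to 4, against 3.68, 4.37, 5.11 and 4.56 in Control 1 to 4. The 4 LKB1 KO arrays were close together (SD 0.12), and the Control arrays were not (SD 0.59), with Control 1 lowest and Control 3 highest. The difference was 0.39 (SE 0.25, limma adjusted p = 0.568), and it was 0.14 without Control 1 and 0.61 without Control 3. Bard1, the obligate partner of BRCA1, read 3.85, 3.74, 3.95 and 4.23 in LKB1 KO 1 to 4, against 3.01, 3.77, 4.80 and 3.27 in Control 1 to 4. Again Control 3 was highest and Control 1 lowest, and the difference of 0.23 had an SE of 0.33. Brip1, the helicase that binds BRCA1, stood at 0.20 (SE 0.38) with a Control range of 1.73, and Brca2 at 0.07 (SE 0.21) with a Control range of 1.09. Palb2, which joins BRCA1 to BRCA2, read 3.14, 3.28, 2.91 and 2.78 in LKB1 KO 1 to 4, against 2.57, 3.30, 2.97 and 2.68 in Control 1 to 4. All 8 of its values were under the background gauge, so its difference of 0.15 carries little information on its transcript.

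Of 7 genes of strand exchange and of the helicases that act with it, 5 had a higher and 2 a lower mean in LKB1 KO. The counts were the same in the group of apical kinases and checkpoint genes. Rad51ap1, whose product stimulates strand invasion, read 3.62, 4.12, 4.43 and 4.46 log2 units in LKB1 KO 1 to 4, against 3.11, 4.17, 4.24 and 3.49 in Control 1 to 4. Control 2 and 3 lay among the LKB1 KO arrays, and the difference was 0.40 (SE 0.27, 95% confidence interval -0.20 to 1.01, limma adjusted p = 0.595). Rad51b, a gene of homologous recombination, read 4.64, 4.23, 4.27 and 4.30 in LKB1 KO 1 to 4, against 4.48, 4.47, 4.60 and 4.54 in Control 1 to 4. Its Control arrays were within 0.13 of each other, and 3 of the 4 LKB1 KO arrays lay below them (difference -0.16, SE 0.13). Rad51c, whose product forms a complex with XRCC3, read 4.35, 3.78, 4.14 and 4.14 in LKB1 KO 1 to 4, against 4.19, 4.56, 4.35 and 3.99 in Control 1 to 4 (difference -0.17, SE 0.16). Xrcc3 differed by 0.06. The motor protein genes Rad54l and Rad54b differed by 0.13 and 0.15, with Control 4 lowest and Control 3 highest of the 8 arrays in both. The helicase gene Blm differed by 0.11.

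Of the Fanconi anemia genes, the central pair and a core subunit had higher means in LKB1 KO, without passing the test. Fanci (Entrez Gene 208836) read 3.88, 3.77, 4.10 and 3.86 log2 units in LKB1 KO 1 to 4, against 3.38, 3.53, 3.80 and 2.91 in Control 1 to 4. The groups overlapped only through LKB1 KO 2, which lay just under Control 3. The difference was 0.49 (SE 0.18, 95% confidence interval 0.09 to 0.90, limma adjusted p = 0.247), and 3 of the 4 Control values were below the background gauge, so its size is uncertain. Fancd2 read 4.05, 3.74, 4.50 and 4.61 in LKB1 KO 1 to 4, against 3.69, 4.01, 4.30 and 3.41 in Control 1 to 4 (difference 0.37, SE 0.23). Fanca, of the core ubiquitin ligase complex, read 3.75, 3.90, 4.25 and 3.85 in LKB1 KO 1 to 4, against 3.52, 3.74, 3.88 and 3.19 in Control 1 to 4 (difference 0.36, SE 0.17, limma adjusted p = 0.425). In all 3 genes Control 4 was the lowest of the 8 arrays. Fancd2 and Fanca each had 2 of the 4 Control values and 0 LKB1 KO values below the gauge, so the sizes of their differences are uncertain too.

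The remaining Fanconi genes differed by less, in either direction. Fancm, the translocase that anchors the core complex to DNA, read 3.88, 4.15, 4.53 and 4.57 log2 units in LKB1 KO 1 to 4, against 4.37, 4.42, 4.93 and 4.38 in Control 1 to 4. LKB1 KO 1 and 2 lay under the Control arrays and Control 3 above the rest (difference -0.24, SE 0.19). Fancc differed by -0.19 with all 8 arrays under the background gauge. The core subunit genes Fancg and Fancb differed by 0.10 and 0.09, and Fancl, the ubiquitin ligase subunit, by 0.03 (95% confidence interval -0.51 to 0.57). Across the set, 16 of the 32 genes had at least 1 array under the gauge, and in 12 more Control than LKB1 KO arrays were under it.

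Most of these genes varied more among the Control arrays than among the LKB1 KO arrays. The SD was lower among LKB1 KO than among Control arrays for 24 of 32 genes, against 47.2% of all genes, and its median was 0.23 in LKB1 KO and 0.38 in Control. Over all genes the medians were 0.22 in LKB1 KO and 0.21 in Control. The trait was not particular to the set. In the lists taken up below, the SD was lower in LKB1 KO for 24 of 25 S phase genes (medians 0.39 in LKB1 KO and 0.72 in Control). It was lower for 20 of 25 G2 and mitosis genes. The 90 further repair and checkpoint genes did not share the trait. There the SD was lower in LKB1 KO for 43 genes (47.8%), with medians of 0.28 in LKB1 KO and 0.26 in Control. In 12 of 32 genes the LKB1 KO values lay inside the Control range, against 16.5% of all genes, and in 4 (Rad51b, Fancb, Atrip and Xrcc3) the Control values lay inside the LKB1 KO range, which is 12.5% of the 32 against 19.4% of all genes. Control 4 was the lowest of the 8 arrays in 15 genes, Control 1 in 8 and LKB1 KO 2 in 7, where the shares over all genes were 12.5%, 12.8% and 19.2%. The highest array was Control 3 in 11 genes, LKB1 KO 3 in 8 and LKB1 KO 4 in 6, where the shares over all genes were 9.1%, 9.9% and 10.4%.

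**Figure D3:**
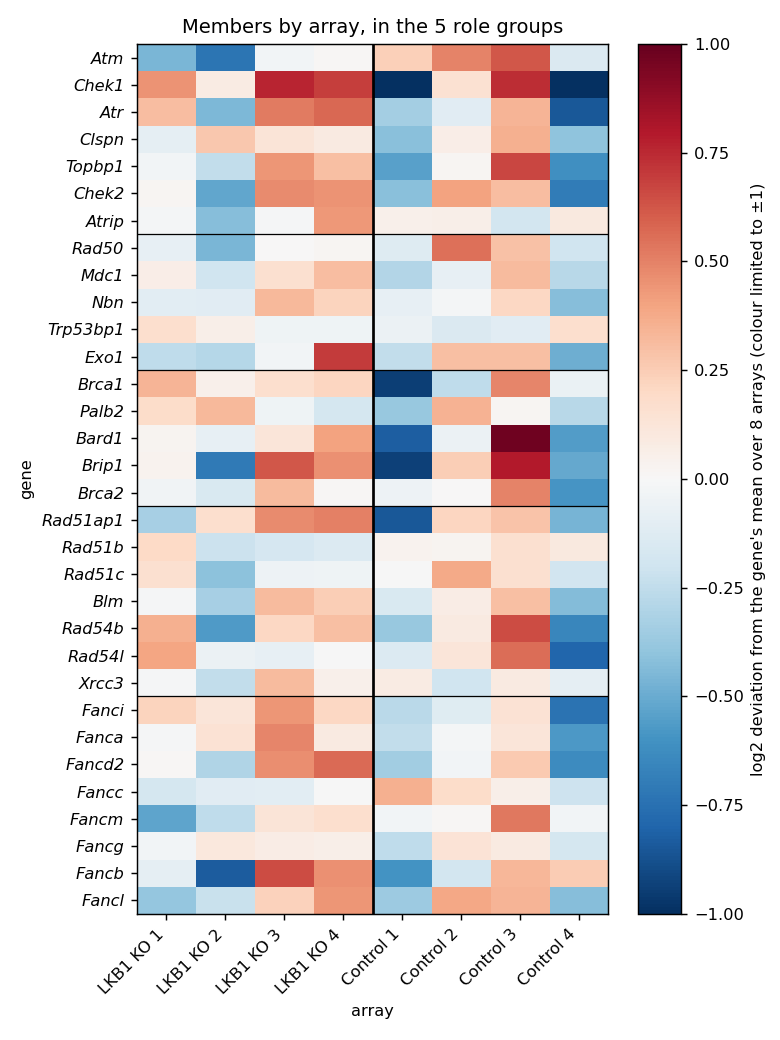
Deviation of each gene from its own mean over 8 arrays, in log2 units, with LKB1 KO arrays left of the line and Control arrays right of it. Rows are grouped by role as in the text, and colour is limited to 1 unit either way. Control 4 is lowest in 15 of 32 genes and Control 3 highest in 11.

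Control arrays were further apart in the 12 genes known to be transcribed in a cell cycle dependent way (Brca1, Brca2, Bard1, Brip1, Rad51ap1, Rad54l, Blm, Exo1, Chek1, Clspn, Fancd2 and Fanci) than in the 20 others. Their median SD was 0.26 in LKB1 KO and 0.50 in Control, against 0.23 in LKB1 KO and 0.29 in Control for the 20. Their lowest array was Control 4 in 7 genes and Control 1 in 5, and their highest was Control 3 in 6 and LKB1 KO 3 and LKB1 KO 4 in 3 each. Part of this pattern also stood in the 20 others. Control 4 was lowest there in 8 genes and LKB1 KO 2 in 7. Control 3 and LKB1 KO 3 were highest there in 5 genes each. The mean was higher in LKB1 KO for all 12, their median difference was 0.22 log2 units, and 0 passed the threshold. That median ran from 0.09 to 0.51 with single arrays left out, the lowest without Control 4 (0.098 without Control 1, 0.36 without LKB1 KO 2) and the highest without Control 3. Those 20 had a median difference of 0.08, with 13 means higher and 7 lower in LKB1 KO.

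Genes of S phase, none of them in the set, were arranged over the arrays in a like order. Around their mean over 8 arrays, the median of 25 S phase genes stood at -0.02, -0.26, 0.42 and 0.38 in LKB1 KO 1 to 4, against -0.38, 0.15, 0.71 and -0.95 in Control 1 to 4. For the 12 cell cycle dependent genes these values were 0.02, -0.07, 0.32 and 0.33 in LKB1 KO 1 to 4, against -0.38, 0.07, 0.42 and -0.54 in Control 1 to 4. In both lists Control 3 was the highest array, Control 4 the lowest and Control 1 next to it. The median of 25 G2 and mitosis genes stood at 0.59, -0.17, 1.11 and 0.84 in LKB1 KO 1 to 4, against -1.04, -0.12, 0.11 and -1.29 in Control 1 to 4. The order within each group was that of the S phase list, but the groups were further apart. Control 3, the top array for repair and S phase genes, lay below LKB1 KO 1, 3 and 4 there.

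Set side by side, the median difference was 1.21 log2 units for 25 G2 and mitosis genes. Of these, 4 rose (Ccnb2, Cdkn3, Mad2l1 and Plk1) and 0 fell, against 0.487% and 1.49% of all genes. Each of these calls ended in 6 to 10 of 17 alternative fits. The median difference was 0.16 for the 25 S phase genes, with 0 past the threshold against 1.98% of all genes. It was 0.14 for the 32 repair and checkpoint genes. The difference between these medians was not tested. The summed log2 level of the S phase list ran from 138.71 to 154.38 in LKB1 KO and from 121.88 to 162.37 in Control, and that of the G2 and mitosis list from 156.42 to 186.96 in LKB1 KO and from 128.56 to 162.54 in Control. With the S phase median of each array as a covariate, an alternative chosen after the data had been seen, 1 of the 32 genes was called. In that fit 172 of the 23185 named genes were called higher and 373 lower in LKB1 KO. The 1 gene was Atm, at -0.75 (SE 0.14, limma adjusted p = 0.0237), and Chek1 stood at 0.65.

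**Figure D4:**
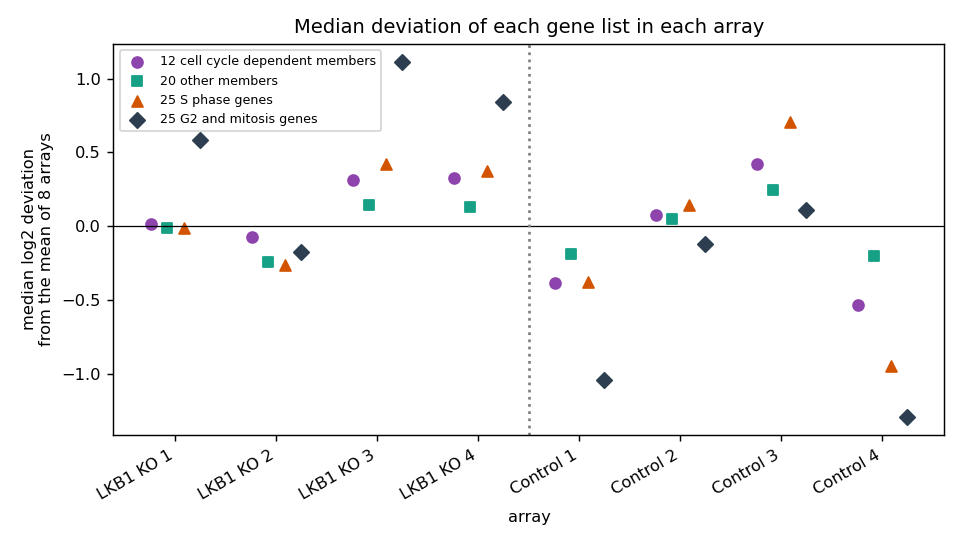
Median log2 deviation from the mean of 8 arrays for 4 gene lists in each array, LKB1 KO left and Control right of the dotted line. S phase genes reach 0.71 in Control 3 and -0.95 in Control 4, whereas G2 and mitosis genes are highest in LKB1 KO 3, at 1.11.

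Further genes of the same 3 pathways gave 0 calls, where 1.98% of all genes were called. Of 31 further homologous recombination genes, 0 rose and 0 fell, with Wrn, a RecQ helicase gene, at -0.61 (SE 0.18, limma adjusted p = 0.146) and Rad51d at -0.49 (SE 0.17, limma adjusted p = 0.216). Of 20 further Fanconi genes, 0 passed. Mad2l2, which serves translesion synthesis and shieldin, stood at -0.58 (SE 0.15, limma adjusted p = 0.0784) and Rev3l, the catalytic subunit gene of the translesion polymerase zeta, at -0.43 (SE 0.15). Of 30 further checkpoint genes, 0 passed, with the mitotic entry phosphatase gene Cdc25c at 1.39 (SE 0.38, limma adjusted p = 0.108) and Mdm2, the ligase gene of the p53 loop, at 0.41 (SE 0.15).

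Of 9 genes of nonhomologous end joining, the other main route of break repair, 1 fell, against 1.49% of all genes. Prkdc, which encodes the catalytic subunit of DNA-PK and belongs with Atm and Atr to one kinase family, read 4.48, 4.04, 4.44 and 4.34 log2 units in LKB1 KO 1 to 4, against 5.05, 5.03, 5.04 and 4.76 in Control 1 to 4. The groups did not overlap, and the difference was -0.65 (SE 0.14, limma adjusted p = 0.0446). The call ended in 11 of 17 alternative fits, among them those without any single array other than Control 4 (adjusted p up to 0.129). The end joining factor gene Paxx stood at -0.59 (SE 0.20, limma adjusted p = 0.202). Over the 90 genes the median difference was 0.02 and 13 had an unadjusted p under 0.05, 14.4% against the 13.4% over all genes.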

How the data were processed

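Total RNA was amplified to cDNA and labelled with biotin, per the labels' protocols, and each of the 8 samples was read on its own array. The authors deposited log2 expression values, and the submitters' processing notes name RMA and Partek without versions. Array design and genome build: not given in the sources used here. Rows were named from the platform annotation: 23185 of 25206 had 1 gene symbol, 0 several and 2021 none. Older symbols of listed genes were updated through RefSeq synonyms.

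limma 3.58.1 (R 4.3.3, lmFit and eBayes) was fitted to all named genes with the group as its single term, adjusted by Benjamini-Hochberg at a threshold of 0.05, two-sided. It was tested on simulated data with independent noise in each gene and array. The genes of the set vary together, so that test does not cover this feature of the data. Differences are LKB1 KO minus Control, with moderated SE. The number of arrays limits the precision. RMA compresses differences of dim genes.

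The members, lists and tests were chosen with earlier results of these data known. Each member is given by its difference. Values in all arrays are given for the 3 smallest p in each of 5 role groups and the 3 largest differences either way. In the further lists, genes past the threshold and the 2 smallest p per list are named. Alternatives left out arrays, changed scaling, filter, prior, weights, rows or threshold, or added a term. Deviations of same-numbered arrays of the groups had r from -0.109 to 0.183. In 1 of 4 numbers the LKB1 KO array correlated best with the Control array of its own number. Same-numbered arrays were therefore not treated as pairs.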

Additional observations from a re-analysis of the deposited data

Results flagged for a closer look

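Each of the 32 genes was examined in both groups for an array far from the other 3, which makes 64 tests, and chance flags about 1 in 20. In 3 cases the gap to the nearest array took up more of the group's range than Dixon's critical value. Fancm in Control 3, at 4.93, was set off from the other Control arrays by 0.924 of their range. Rad54l in LKB1 KO 1, at 4.25, was set off by 0.849 of the LKB1 KO range, and Rad54b in LKB1 KO 2, at 3.60, by 0.840.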

How the results depend on the processing

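The 32 genes gave 0 calls under 17 alternative settings, and 1 (Atm) with the S phase covariate, chosen after the data had been seen. That covariate fit called 172 of all named genes higher and 373 lower in LKB1 KO. The count over all genes, 458, ran from 213 to 491 with single arrays left out, and was 268 with the replicate block, 721 with array weights and 139 at an adjusted p under 0.01. The block changed no call among the 32 genes, ended that of Prkdc (adjusted p = 0.0987) and is not a pairing the labels give. Among the 90 further pathway genes 0 to 1 passed with single arrays left out (Cdc25c in place of Prkdc without LKB1 KO 2). It was 0 with the replicate block, quantile normalization, median centring, the trended and robust prior or the stricter threshold, and 2 (Prkdc and Cdc25c) with array weights, the S phase covariate, or without both LKB1 KO 2 and Control 4. The median over the 32 genes stayed between 0.05 and 0.25.

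Differences near 0 had no fixed sign. With single arrays left out, Atrip ran from -0.16 to 0.13, Brca2 from -0.12 to 0.25, Fancb from -0.11 to 0.39, Fancl from -0.11 to 0.17, Xrcc3 from -0.040 to 0.15, Exo1 from -0.16 to 0.18, Bard1 from -0.0031 to 0.59, Brip1 from -0.075 to 0.50, Blm from -0.020 to 0.24, Rad54l from -0.12 to 0.33 and Rad54b from -0.046 to 0.39. Without both LKB1 KO 2 and Control 4, Brca2 was -0.052, Fancl -0.026, Atrip 0.16, Rad54l -0.076 and Palb2 -0.0051. Atrip was 0.019 under quantile normalization and 0.10 with array weights, and Fancl -0.0039 under median centring. With the S phase covariate Brca2 was -0.075, Fancb -0.017, Fancl -0.12, Blm -0.022, Exo1 -0.086, Rad54l -0.026, Rad54b -0.057 and Brip1 -0.061. None of these passed the test, and the cause of the turns was not tested. Dim levels limit Palb2 and Fancc, which the filter on dim genes removed.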
